A study of Homo sapiens with 6 samples.

Results

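The named long noncoding RNAs (lncRNAs) described here are 336 of the 27776 genes in the table of read counts. They were chosen by annotation and level: biotype lncRNA, a gene name in place of a bare Ensembl identifier, no antisense suffix, no membership of the SNHG group, GAS5 or ZFAS1, and a mean of at least 2 CPM (reads of a gene scaled to the total of the library) over all 6 libraries. Of 10665 lncRNA genes listed, 3551 carried a name, 2215 met the naming conditions and 336 also met the level. Polyadenylated RNA had been sequenced from MDA-MB-231, an established human triple-negative breast cancer cell line, in 3 khellin libraries and 3 control libraries. Khellin is a furanochromone from the plant Ammi visnaga, and its dose and exposure time are not given in the labels used here. The word control is from the sample titles. The design text speaks of docetaxel-resistant cells instead, and the labels do not settle whether any of the cells were resistant. Separate cultures are stated nowhere in the sources used, although the titles say biological replicates, so the p-values measure only the spread between these libraries. As these are bulk libraries, fewer cells of a type and less RNA per cell cannot be told apart.

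LncRNAs are transcripts without a known protein product, most of them made by RNA polymerase II, spliced and polyadenylated like messenger RNA. Some hold proteins together in nuclear bodies, some carry microRNAs (miRNAs) that the enzymes Drosha and Dicer cut out of the transcript or its introns, and many are made divergently from the promoter of a protein-coding gene, for which the name suffix -DT stands. Their level is usually lower than that of messenger RNA and varies strongly between cell types.

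The libraries held 28631578 to 30956610 counts, at which 3 counts corresponded to 0.0977 to 0.103 CPM. The cell line's expected markers were present, with vimentin (VIM) at 1915 to 2217 CPM, CD44 at 474 to 602 CPM and AXL at 663 to 729 CPM. ERBB2 had 100.8 to 123.1 CPM, the oestrogen receptor gene ESR1 had at most 13 reads and the epithelial cadherin gene CDH1 at most 2 reads in a library. Of 8 fibroblast, endothelial and blood cell markers, 5 have a row in the table, and their summed level was 13.9 to 15.1 CPM in khellin libraries and 7.80 to 8.29 CPM in control libraries. The leukocyte gene PTPRC had at most 6 reads and the endothelial gene CDH5 at most 1 read. The collagen gene COL1A1 (log2 fold change 0.86, edgeR adjusted p = 0.000129), the endothelial adhesion gene PECAM1 (0.62, edgeR adjusted p = 0.0232) and the stromal receptor gene PDGFRB (1.35, edgeR adjusted p = 0.0319) rose with khellin. COL1A1 had 10.7 to 11.3 CPM in khellin libraries and 5.74 to 6.38 CPM in control libraries, PECAM1 2.12 to 2.92 CPM in khellin libraries and 1.55 to 1.62 CPM in control libraries, and PDGFRB 0.690 to 1.24 CPM in khellin libraries and 0.165 to 0.544 CPM in control libraries. The part of such markers in the results was not tested. The named lncRNAs together took 0.408%, 0.402% and 0.409% of the counts in the khellin libraries, against 0.439%, 0.459% and 0.426% in the control libraries. These shares did not overlap between the groups.

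With khellin, 30 of the 336 lncRNAs rose and 48 fell, and 258 did not pass an adjusted p of 0.05 (quasi-likelihood test of edgeR, Benjamini-Hochberg adjustment over all 15865 tested genes). Those 78 were 23.2% of the lncRNAs. Of all tested genes 19.4% passed, and of the 12373 tested genes with a mean of at least 2 CPM 22.6% passed. The share of lncRNAs that fell was 14.3%, beside 8.82% of all tested genes and 10.6% of those of at least 2 CPM. The share that rose was 8.93%, beside 10.6% of all tested genes and 11.9% of those of at least 2 CPM. More falls than rises were also seen in the other lncRNAs of at least 2 CPM. Of 200 antisense lncRNAs 12.5% fell and 8% rose, and of 326 with only an Ensembl identifier 12.6% fell and 6.44% rose. Of the 22 in the SNHG group with GAS5 and ZFAS1, 13.6% fell and 4.55% rose. The libraries of the groups did not overlap for 141 lncRNAs (42.0%), beside 38.2% of all tested genes and 41.8% of those of at least 2 CPM. The median log2 fold change (khellin over control) over the 336 was -0.01, beside 0.00 over all tested genes, and the range was -1.74 to 1.52. Scaled by library size alone, these medians were 0.03 and 0.05. Changes were mostly modest: the 78 had a median log2 fold change of 0.48 without regard to sign, with 1 lncRNA at least 2-fold higher and 4 at least 2-fold lower. No test was made of whether these shares differ from those of other genes, since the lncRNAs were chosen with results of these libraries known.

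Falls were spread over all levels, while rises lay under 20 CPM. Among the 48 lncRNAs with a mean of at least 20 CPM, 15 fell and 0 rose in the edgeR test. Of these 48, 2 rose and 22 fell at an unadjusted p under 0.05, DESeq2 called 0 higher and 16 lower, and limma-voom called 0 higher and 15 lower. With library size alone as the scaling 1 of them rose, without control replicate 1 it was 1, and without control replicate 3 it was 2. Of the 165 lncRNAs between 2 and 5 CPM, 16 rose and 17 fell, and of the 123 between 5 and 20 CPM, 14 rose and 16 fell. Protein-coding genes of at least 20 CPM numbered 8022, of which 879 rose and 980 fell, while of 911 between 2 and 5 CPM 136 rose and 56 fell.

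**Figure D1:**
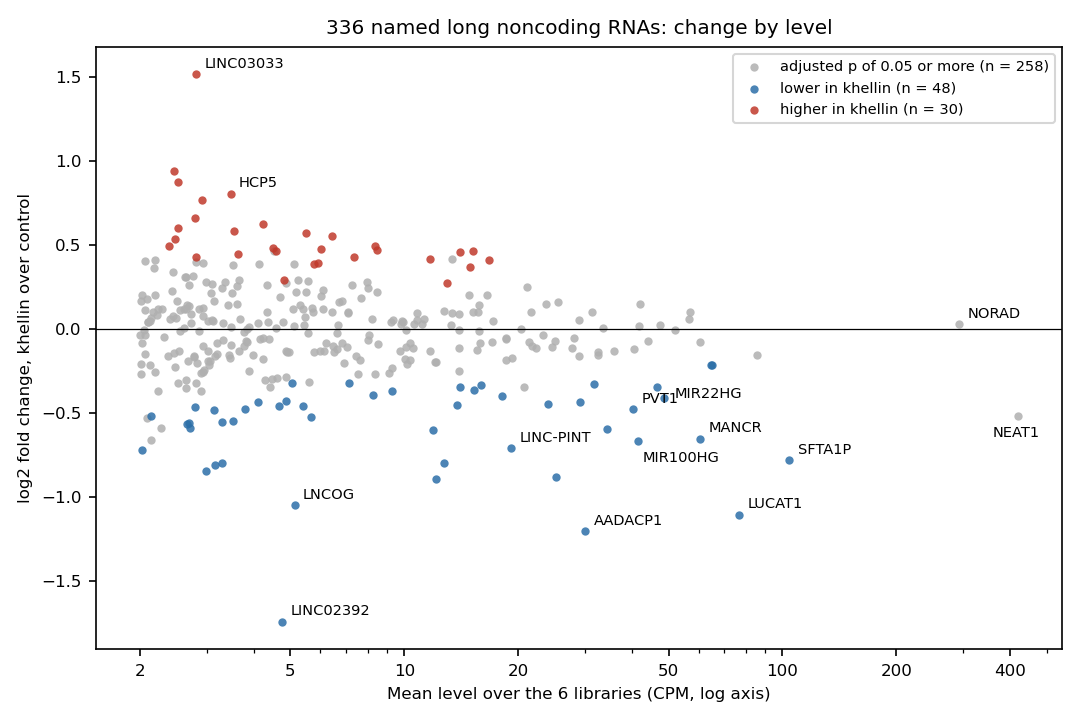
Mean level over the 6 libraries (x axis, CPM, log scale) against the log2 fold change of khellin over control (y axis) for each of the 336 named lncRNAs, 1 point each, red where higher with khellin, blue where lower and grey where the adjusted p was 0.05 or more. The 30 red points all lie under 20 CPM, while 15 of the 48 points at 20 CPM or more are blue.

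By name, 105 were long intergenic noncoding RNAs (LINC), of which 8 rose and 18 fell. The 85 divergent transcripts had 6 rises and 10 falls, the 19 miRNA host genes named MIR with the suffix HG had 2 rises and 5 falls, and the 62 with other names had 4 rises and 10 falls. The 65 lncRNAs described in the table as pseudogenes had 10 rises and 5 falls. The shares that passed were 24.8% for LINC, 18.8% for divergent, 36.8% for miRNA host, 22.6% for other and 23.1% for pseudogene names. Of all tested genes with a mean of at least 2 CPM 22.6% passed. Differences between these classes were not tested. Pseudogene reads can also come from the parent gene, so which gene they belong to is uncertain. In all, 203 of the 336 overlap another listed gene, 164 of them a gene on the opposite strand, and the strand setting of the counting is not given in the sources used here, so their counts are uncertain as to the gene. Of the 133 that overlap no listed gene, 14 rose and 22 fell.

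LUCAT1 (ENSG00000248323) was the most abundant of the 10 lncRNAs with the largest falls. It is a stress-induced RNA first described in lung cancer and known as a brake on interferon responses in human myeloid cells. The gene lies at chr5:91054834-91314547 on the minus strand (GRCh38, inferred by comparison with GENCODE release 29). LUCAT1 had 52.1, 47.5 and 46.6 CPM in khellin libraries, against 110.5, 102.6 and 101.1 CPM in control libraries. Every khellin library lay under every control library. The means were 48.8 ± 2.95 CPM with khellin and 104.7 ± 5.06 CPM in control (SD, n = 3 each), a log2 fold change of -1.10 (SE 0.0609, edgeR adjusted p = 8.55e-06), or 2.15-fold lower. LUCAT1 overlaps ADGRV1, an adhesion G protein-coupled receptor gene, on the opposite strand. ADGRV1 had 7.16 CPM with khellin and 5.64 CPM in control and rose (log2 fold change 0.34, SE 0.101, edgeR adjusted p = 0.0402).

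LNCOG (ENSG00000257219, chr12:76259836-76305969, plus strand) fell from a far lower level. It had 3.31, 3.93 and 2.80 CPM in khellin libraries, against 6.69, 6.52 and 7.54 CPM in control libraries, with no overlap. Its log2 fold change was -1.05 (SE 0.129, edgeR adjusted p = 0.000629), and the gene overlaps no other listed gene. The nearest protein-coding gene, the Bardet-Biedl syndrome gene BBS10 at 38505 bases, had 14.4 CPM with khellin and 17.1 CPM in control and did not pass the test. LUCAT1 and LNCOG had been singled out for study on these same libraries, so their p-values are no independent evidence.

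The largest fall was that of LINC02392 (chr12:90280894-90300974, plus strand), which overlaps no other listed gene. It had 2.10, 2.15 and 2.31 CPM in khellin libraries, against 7.87, 6.83 and 7.28 CPM in control libraries. It was 3.34-fold lower (log2 fold change -1.74, SE 0.105, edgeR adjusted p = 1.27e-05), with the groups far apart. AADACP1, a pseudogene of the arylacetamide deacetylase gene AADAC, had 19.4, 15.0 and 20.4 CPM in khellin libraries, against 48.6, 43.2 and 34.1 CPM in control libraries. Its log2 fold change was -1.20 (SE 0.1495, edgeR adjusted p = 0.00102), and the control libraries were more spread than for LUCAT1. AADACP1 overlaps another listed gene. AADAC itself, 29128 bases away, had 8.23 CPM with khellin and 15.1 CPM in control and fell by 0.88 log2 units (SE 0.0734). How far reads of AADAC and AADACP1 were assigned to the wrong copy was not tested.

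Of the 6 other lncRNAs among the 10 largest falls, LYPLAL1-DT, APCDD1L-DT and DUSP5-DT are divergent transcripts and are described with their partner genes. LINC01355 fell by 0.84 (SE 0.142), LINC01293 by 0.80 (SE 0.125) and LINC01605 by 0.80 (SE 0.0884) log2 units. LINC01605 had 8.69, 10.1 and 9.08 CPM in khellin libraries, against 15.1, 15.8 and 17.5 CPM in control libraries. A further row of that name, of 0.448 CPM with khellin and 0.358 CPM in control, lies under the level used here.

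The rises began from lower levels. LINC03033 (chr14:61570405-61658696, plus strand) had 4.24, 3.97 and 4.33 CPM in khellin libraries, against 1.52, 1.70 and 1.16 CPM in control libraries. It was 2.86-fold higher (log2 fold change 1.52, SE 0.145, edgeR adjusted p = 0.000154), the only one of the 336 that was at least 2-fold higher. LINC03033 overlaps another listed gene, so its counts are uncertain as to the gene. Its nearest protein-coding gene, PRKCH, which encodes a protein kinase C isoform, lies 19429 bases away and had 21.5 CPM with khellin and 18.2 CPM in control (log2 fold change 0.24, SE 0.0617, edgeR adjusted p = 0.0242). HCP5, a noncoding gene within the major histocompatibility complex class I region on chromosome 6, had 4.48, 4.67 and 4.10 CPM in khellin libraries, against 2.67, 2.68 and 2.22 CPM in control libraries. It rose by 0.81 log2 units (SE 0.119, edgeR adjusted p = 0.00166). Its neighbour MICB, which encodes a stress-induced ligand of the receptor NKG2D, lies 15945 bases away and rose by 0.21 (SE 0.0499), with 127.5 CPM under khellin and 110.0 CPM in control.

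The other 8 of the 10 largest rises had log2 fold changes of 0.94 for LINC02701, 0.88 for SAP30-DT, 0.77 for LINC01224, 0.67 for LINC01833, 0.63 for ACAD9-DT, 0.61 for MTA1-DT and 0.58 for both TYMSOS and HSD17B7P2. The groups did not overlap for any of these 8, but they were picked from lncRNAs that passed, so this is no separate evidence. TYMSOS lies opposite TYMS, the thymidylate synthase gene, which had 97.9 CPM with khellin and 89.4 CPM in control and did not pass (log2 fold change 0.13). MTA1-DT lost its call when any 1 library other than control replicate 3 was left out (adjusted p of 0.0631 to 0.112). For TYMSOS this held when control replicate 2, khellin replicate 1 or khellin replicate 2 was left out (adjusted p of 0.0557 to 0.0659).

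**Figure D2:**
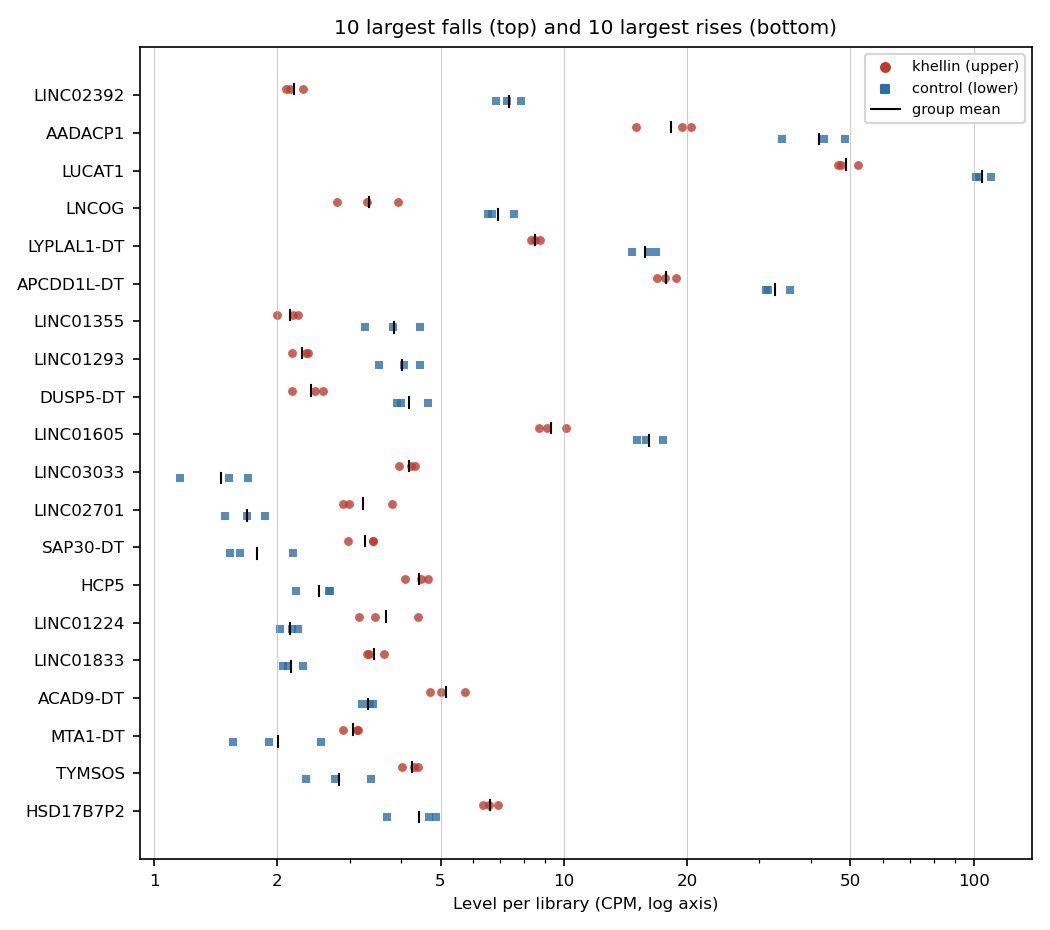
Level in each library (x axis, CPM, log scale) of the 10 named lncRNAs with the largest falls and the 10 with the largest rises, with khellin libraries as red circles above, control libraries as blue squares below and the group mean as a black bar. The groups do not overlap in any row, which is no separate evidence, since the rows were picked from lncRNAs that passed. Of the 10 rises, 8 have every khellin library under 5 CPM.

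The 10 most abundant of these RNAs held both tight falls, such as that of LUCAT1, and RNAs that did not pass. NEAT1, the scaffold of nuclear paraspeckles, had 337.9, 342.4 and 357.2 CPM in khellin libraries, against 413.7, 675.8 and 392.7 CPM in control libraries. Control replicate 2 stood far above the other libraries. The log2 fold change was -0.51 (SE 0.180) and did not pass (edgeR adjusted p = 0.0812), while without control replicate 2 it was -0.22 and passed (edgeR adjusted p = 0.0340). NORAD, which binds the Pumilio proteins in the cytoplasm, had 301.3, 281.9 and 305.4 CPM in khellin libraries, against 321.0, 284.3 and 263.4 CPM in control libraries. Its groups overlapped (log2 fold change 0.03, SE 0.0702, edgeR adjusted p = 0.790, and -0.03 without control replicate 3). NEAT1 and NORAD alone made up 16.8% of the summed CPM of the 336. Without NEAT1 the sum was 3686, 3617 and 3677 CPM in khellin libraries, against 4045, 3952 and 3966 CPM in control libraries, still with no overlap.

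SFTA1P, a transcribed surfactant-associated pseudogene, had 78.9, 75.7 and 75.7 CPM in khellin libraries, against 125.9, 124.6 and 144.9 CPM in control libraries. It fell by 0.78 log2 units (SE 0.0637, edgeR adjusted p = 6.09e-05) and overlaps no other listed gene. MANCR, the mitotically associated lncRNA described in triple-negative breast cancer, had 48.1, 44.2 and 49.2 CPM in khellin libraries, against 74.5, 72.2 and 75.5 CPM in control libraries. It fell by 0.65 (SE 0.0573, edgeR adjusted p = 9.54e-05), with a gap of more than 20 CPM between the groups. MIR4435-2HG had 82.5, 79.1 and 81.8 CPM in khellin libraries, against 88.8, 93.7 and 87.8 CPM in control libraries. These groups did not overlap, but the difference just missed the threshold (log2 fold change -0.15, edgeR adjusted p = 0.0540), and it passed with RLE factors (0.0405), without control replicate 1 (0.0453) and without control replicate 3 (0.0252). MIR4435-2HG and CYTOR are near-identical in part of their sequence, so reads may be split between them. CYTOR had 36.1, 41.4 and 39.1 CPM in khellin libraries, against 37.6, 42.6 and 46.4 CPM in control libraries, and did not pass.

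Of the remaining abundant lncRNAs, TRIM16L and LINC01278 each fell by 0.21 log2 units, and neither passed when control replicate 2, khellin replicate 1 or khellin replicate 3 was left out (adjusted p of 0.0547 to 0.108 for TRIM16L and of 0.0503 to 0.0965 for LINC01278). LINC02693 (-0.08) and ZNF584-DT (0.10) did not pass. Per kilobase of exon, which allows levels to be set against each other between genes, SFTA1P stood first with 93.2 CPM per kb under khellin and 160.0 CPM per kb in control. NORAD had 55.5 CPM per kb under khellin and 54.2 CPM per kb in control. NEAT1, whose transcript is long, had 15.2 CPM per kb under khellin and 21.7 CPM per kb in control. An exon length was found for 269 of the 336.

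**Figure D3:**
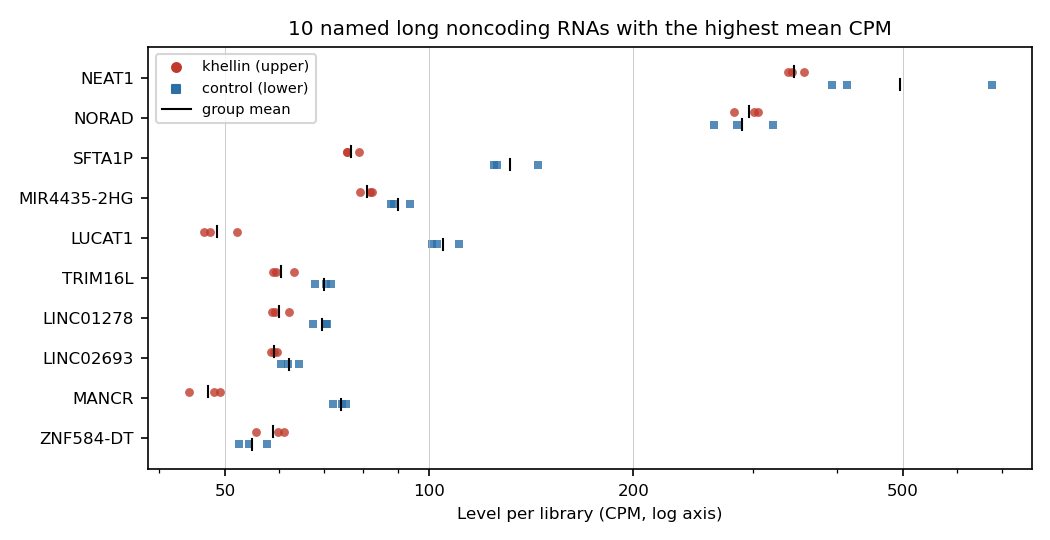
Level in each library (x axis, CPM, log scale) of the 10 named lncRNAs with the highest mean, khellin libraries as red circles above, control libraries as blue squares below and the group mean as a black bar. LUCAT1, SFTA1P and MANCR show the widest gaps between groups, and 1 control library of NEAT1 stands apart at 675.8 CPM.

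Among lncRNAs with a described role, 6 of 9 listed nuclear and scaffold RNAs are among the 336, and 1 of them, LINC-PINT, passed the test. TUG1, which the table gives the biotype protein-coding, is not among them, with 188.7 CPM under khellin and 174.7 CPM in control. LINC-PINT is a p53-induced RNA that interacts with the Polycomb complex PRC2. It had 14.7, 14.1 and 14.8 CPM in khellin libraries, against 22.9, 24.8 and 23.5 CPM in control libraries, and fell by 0.71 log2 units (SE 0.0647, edgeR adjusted p = 0.000118). LINC-PINT overlaps MKLN1, which had 47.2 CPM with khellin and 44.8 CPM in control and did not pass, so its counts are uncertain as to the gene. CHASERR, which limits the expression of its neighbour CHD2, had a log2 fold change of 0.11 (edgeR adjusted p = 0.519), whereas CHD2, a chromatin remodeller gene that overlaps it on the same strand, had 124.2 CPM with khellin and 104.5 CPM in control and rose by 0.25 (SE 0.0528, edgeR adjusted p = 0.0104). MALAT1, a nuclear speckle RNA that is highly abundant in most cells, was counted at 3.14, 2.92 and 2.86 CPM in khellin libraries, against 2.47, 3.94 and 1.82 CPM in control libraries. TALAM1, listed on the opposite strand of MALAT1, had 0.0109 CPM with khellin and 0.0113 CPM in control, under the floor of 3 counts. Whether the counting of overlapping genes lowered MALAT1 was not tested.

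Of 11 tumour-linked lncRNAs at this level (28 listed), 4 fell: LUCAT1, MANCR, PVT1 and LINP1. Of all tested genes with a mean of at least 2 CPM 10.6% fell. PVT1, the lncRNA gene next to MYC on chromosome 8, had 35.3, 34.0 and 31.7 CPM in khellin libraries, against 45.0, 46.3 and 49.1 CPM in control libraries (log2 fold change -0.48, SE 0.0643, edgeR adjusted p = 0.00105). LINP1, which promotes DNA end joining in triple-negative breast cancer cells, had 28.5, 27.5 and 28.8 CPM in khellin libraries, against 33.4, 34.1 and 38.6 CPM in control libraries (log2 fold change -0.33, SE 0.0702, edgeR adjusted p = 0.0113). The other 7, among them CYTOR, CRNDE and DANCR, did not pass, with log2 fold changes of -0.16 (CRNDE) to 0.27 (LINC00511). Of 4 inflammation-linked lncRNAs (12 listed), LUCAT1 and MIR3142HG fell and MIR4435-2HG and CYTOR did not pass. Of 3 p53-linked lncRNAs (10 listed), LINC-PINT and PVT1 fell and NEAT1 did not pass. The lists share lncRNAs, so their counts are not separate. LUCAT1, CYTOR and PVT1 are also in the tumour-linked list, and LINC-PINT and NEAT1 in the nuclear and scaffold list. MIR3142HG and MIR4435-2HG are also in the list of miRNA hosts. MIR34AHG, the host gene of the p53-induced miR-34a, lay under the level used here and is named after its values were seen: it had 0.783 ± 0.0627 CPM with khellin and 0.280 ± 0.0477 CPM in control (SD, n = 3 each) and rose (log2 fold change 1.47, SE 0.253, edgeR adjusted p = 0.00377). The p53-linked list thus held changes in both directions.

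Of 56 tested genes for proteins that work with these RNAs, 9 passed (16.1%), beside 19.4% of all tested genes. Of 10 tested paraspeckle protein genes, 2 rose, among them PSPC1 (log2 fold change 0.32, SE 0.0552), and 8 did not pass. Of 7 genes for NORAD and MALAT1 binding proteins, RBMX fell by 0.22 (SE 0.0434), while PUM2 (0.13) and the splicing factor gene SRSF1 (-0.55, SE 0.267) did not pass. Of 7 PRC2 genes, the methyltransferase gene EZH2 (0.16, SE 0.0414, edgeR adjusted p = 0.0267) and the histone-binding subunit gene RBBP4 (0.19, SE 0.0502, edgeR adjusted p = 0.0286) rose. Neither was called without control replicate 2 or without any 1 khellin library, and DESeq2 called only 1 of the 7 higher. Of 19 genes of the nuclear RNA exosome and its adaptors, which degrade many noncoding transcripts, MPHOSPH6 fell by 0.41 (SE 0.0872) and EXOSC3 by 0.22 (SE 0.0618), and the scarce EXOSC4 (-0.52, SE 0.391) did not pass. Of 13 miRNA processing genes, the Argonaute partners TNRC6B (0.30, SE 0.0565) and TNRC6C (0.32, SE 0.0731) rose, and DROSHA (-0.03), DICER1 (0.03) and DGCR8 (-0.05) did not pass.

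MiRNA host transcripts formed the functional group with the most named members: of 21 in the list, 5 fell, 2 rose and 14 did not pass, with a median log2 fold change of -0.12 and a range of -0.67 to 0.45. Of all tested genes 19.4% passed, and of those with a mean of at least 2 CPM 22.6% passed. Whether the hosts differ from other genes was not tested. The counts are of the long polyadenylated host transcript, and mature miRNAs were not measured. Among the lncRNAs searched by coordinates, 28 hold 86 mature miRNAs on their own strand, and 6 of these hosts fell, 2 rose and 20 did not pass. The sixth host that fell, LINC-PINT, is not named after a miRNA. The best-known mature miRNAs of the 8 changed hosts are shown because they are the products by which these hosts are known. The sequences are from RefSeq (GRCh38.p14), 5′ to 3′, with the seed, bases 2 to 8, in capitals.
miR-22-3p of MIR22HG: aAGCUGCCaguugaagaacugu
miR-146a-5p of MIR3142HG: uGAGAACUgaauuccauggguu
miR-100-5p of MIR100HG: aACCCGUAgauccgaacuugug
let-7a-5p of MIR100HG: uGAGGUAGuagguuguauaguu
miR-125b-5p of MIR100HG: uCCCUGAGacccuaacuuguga
miR-221-3p of MIR222HG: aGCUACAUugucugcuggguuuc
miR-222-3p of MIR222HG: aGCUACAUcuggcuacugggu
miR-23a-3p of MIR23AHG: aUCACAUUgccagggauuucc
miR-27a-3p of MIR23AHG: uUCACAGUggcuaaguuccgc
miR-24-3p of MIR23AHG: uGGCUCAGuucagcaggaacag
miR-29a-3p of LINC-PINT: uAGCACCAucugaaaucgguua
miR-29b-3p of LINC-PINT: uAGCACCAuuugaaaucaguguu
miR-137-3p of MIR137HG: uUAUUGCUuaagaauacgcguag
miR-924 of MIR924HG: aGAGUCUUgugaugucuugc
The seed GCUACAU is shared by miR-221-3p and miR-222-3p, both in MIR222HG, and AGCACCA by miR-29a-3p and miR-29b-3p, both in LINC-PINT. The seed of let-7a-5p, GAGGUAG, also occurs in miRNAs of 3 other hosts among the 336, MIR4458HG, MIRLET7A1HG and MIRLET7IHG, which did not pass. Of these, MIRLET7A1HG holds let-7a-5p itself. MIR29B2CHG, which holds miR-29c-3p with the seed AGCACCA and also miR-29b-3p itself, did not pass either (log2 fold change 0.12). The let-7a-5p and miR-29b-3p shown above are thus not held by a host that fell alone. Hosts that share a seed therefore did not all have the same call.

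MIR22HG, the host of miR-22, had 43.0, 42.3 and 40.4 CPM in khellin libraries, against 55.5, 54.9 and 56.4 CPM in control libraries. It fell by 0.41 log2 units (SE 0.0535, edgeR adjusted p = 0.000878), with tight and separate groups. MIR22HG overlaps WDR81 on the opposite strand, so its counts are uncertain as to the gene. WDR81 had 45.5 CPM with khellin and 51.6 CPM in control and did not pass (log2 fold change -0.18). MIR3142HG, the host of miR-146a, a miRNA induced by NF-kB that dampens Toll-like receptor signalling, had 19.9, 19.6 and 21.5 CPM in khellin libraries, against 29.3, 27.1 and 26.8 CPM in control libraries (log2 fold change -0.45, SE 0.0676, edgeR adjusted p = 0.00199). MIR100HG, whose introns hold miR-100, let-7a-2 and miR-125b-1, had 32.3, 28.98 and 35.2 CPM in khellin libraries, against 58.6, 47.9 and 46.5 CPM in control libraries. It had the largest called fall of the 21 listed hosts (log2 fold change -0.67, SE 0.103, edgeR adjusted p = 0.00255). MIR222HG, the host of miR-221 and miR-222, which target the cell cycle inhibitor gene CDKN1B, had 9.89, 8.34 and 10.2 CPM in khellin libraries, against 16.7, 13.999 and 12.4 CPM in control libraries (log2 fold change -0.60, SE 0.122, edgeR adjusted p = 0.00920). MIR23AHG, the host of miR-23a, miR-27a and miR-24-2, had 15.4, 15.5 and 16.2 CPM in khellin libraries, against 18.5, 21.8 and 21.6 CPM in control libraries (log2 fold change -0.39, SE 0.0791, edgeR adjusted p = 0.00808). MIR23AHG overlaps ZSWIM4, which had 13.0 CPM with khellin and 11.9 CPM in control and did not pass. All 5 of these hosts had no overlap between the groups, but they were picked because they passed, so this is no separate evidence.

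MIR137HG had 8.55, 8.51 and 8.24 CPM in khellin libraries, against 6.38, 6.05 and 6.32 CPM in control libraries, and rose by 0.43 (SE 0.0776, edgeR adjusted p = 0.00477). It overlaps DPYD, the gene of the pyrimidine-degrading dihydropyrimidine dehydrogenase, on the same strand, and DPYD rose too, with 32.3 CPM under khellin and 27.1 CPM in control (log2 fold change 0.26, SE 0.0641, edgeR adjusted p = 0.0216). MIR924HG had 4.55, 3.83 and 4.23 CPM in khellin libraries, against 2.70, 3.47 and 3.08 CPM in control libraries, and rose by 0.45 (SE 0.125, edgeR adjusted p = 0.0335). MIR17HG, the host of the miR-17 to miR-92a cluster, had 2.17, 0.975 and 1.82 CPM in khellin libraries, against 2.74, 2.96 and 2.15 CPM in control libraries. Its estimate of -0.66 was near that of MIR100HG, but its groups overlapped and it did not pass (SE 0.253, edgeR adjusted p = 0.107).

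**Figure D4:**
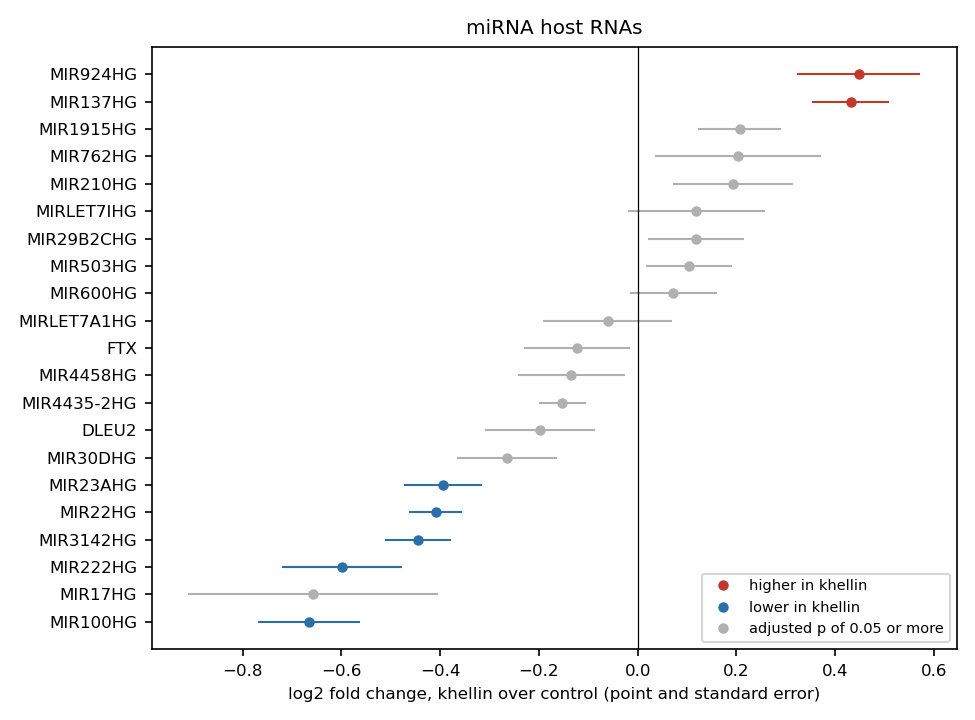
Log2 fold change of khellin over control (x axis; point and standard error) for the 21 listed miRNA host RNAs among the named lncRNAs, red where higher with khellin, blue where lower and grey where the adjusted p was 0.05 or more. Blue points lie at -0.67 to -0.39, red points at 0.43 and 0.45, and the wide error of MIR17HG stands out.

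The 85 divergent transcripts allow each lncRNA to be set beside the gene it is named after. All 85 partner genes were tested, every pair lies on opposite strands, and the starts lay within 1000 bases in 78 pairs, at a median of 134 bases. The 16 divergent transcripts that passed were 18.8% of the 85, beside 22.6% of all tested genes with a mean of at least 2 CPM. Of these 16, 4 had a partner that moved the same way and passed, and 12 had a partner that did not pass. Among all 85 partners 25 passed. The log2 fold changes of transcript and partner had the same sign in 52 pairs, with Pearson's r = 0.446 and Spearman's rho = 0.391 across pairs. This is a description across genes of the same 6 libraries. How reads were assigned in the pairs that overlap is not given, so their counts are uncertain as to the gene.

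APCDD1L-DT had 16.9, 17.7 and 18.8 CPM in khellin libraries, against 31.1, 31.4 and 35.6 CPM in control libraries, and fell by 0.88 log2 units (SE 0.0756, edgeR adjusted p = 8.39e-05). Its partner APCDD1L, a homologue of a Wnt inhibitor gene, had 122.9 CPM with khellin and 185.3 CPM in control and fell by 0.59 (SE 0.0553). LYPLAL1-DT had 8.48, 8.74 and 8.33 CPM in khellin libraries, against 14.7, 16.8 and 16.01 CPM in control libraries (log2 fold change -0.89, SE 0.0775, edgeR adjusted p = 8.80e-05). Its partner, the lysophospholipase-like gene LYPLAL1, had 6.74 CPM with khellin and 9.27 CPM in control and fell by 0.46 (SE 0.140, edgeR adjusted p = 0.0483). Both of these transcripts overlap their partner, so a part of the counts may belong to either. DUSP5-DT does not overlap DUSP5, the gene of a phosphatase that inactivates nuclear ERK, and starts 1317 bases from it. DUSP5-DT had 2.17, 2.59 and 2.47 CPM in khellin libraries, against 3.92, 4.01 and 4.66 CPM in control libraries (log2 fold change -0.80, SE 0.124, edgeR adjusted p = 0.00214). DUSP5 had 182.6 CPM with khellin and 224.7 CPM in control and fell by 0.30 (SE 0.0483, edgeR adjusted p = 0.00269). OSER1-DT rose by 0.40 (SE 0.116) and OSER1, an oxidative stress-responsive gene, by 0.16 (SE 0.0471), the 1 pair that rose together.

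Other divergent transcripts passed without their partner. BAIAP2-DT had 16.4, 16.8 and 15.7 CPM in khellin libraries, against 11.2, 11.8 and 12.5 CPM in control libraries, and rose by 0.46 (SE 0.0722, edgeR adjusted p = 0.00223), while BAIAP2, the gene of a membrane-bending actin adaptor, had 60.0 CPM with khellin and 57.2 CPM in control (log2 fold change 0.07, SE 0.0650). ACAD9-DT had 5.72, 5.01 and 4.72 CPM in khellin libraries, against 3.41, 3.36 and 3.21 CPM in control libraries (log2 fold change 0.63, SE 0.109, edgeR adjusted p = 0.00382), and ACAD9, needed for assembly of respiratory complex I, had -0.05 (SE 0.0577). SAP30-DT had 2.96, 3.43 and 3.42 CPM in khellin libraries, against 1.62, 1.53 and 2.18 CPM in control libraries, and SAP30, a subunit gene of the Sin3 deacetylase complex, had a log2 fold change of 0.07 (SE 0.0647). In the other direction, SLC20A1, a phosphate transporter gene, rose by 0.48 (SE 0.0371), with 633.8 CPM under khellin and 455.7 CPM in control, while SLC20A1-DT did not pass (0.17, SE 0.117). Whether transcript and partner differed in these pairs was not tested. SLC20A1 and its pair were chosen after their values were seen.

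**Figure D5:**
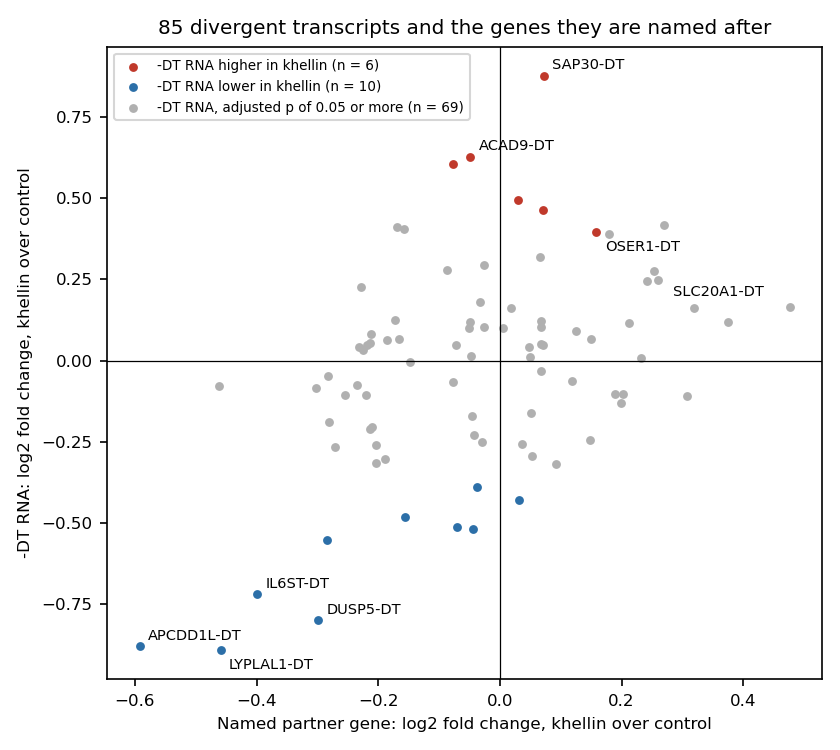
Log2 fold change of khellin over control of each of the 85 divergent transcripts (y axis) against that of the gene it is named after (x axis), red where the transcript rose, blue where it fell and grey where its adjusted p was 0.05 or more. APCDD1L-DT, LYPLAL1-DT and DUSP5-DT lie with their partners at the lower left, while SAP30-DT and ACAD9-DT lie near a partner change of 0.

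Over all 336 lncRNAs, the nearest protein-coding gene, an overlapping one counted as nearest, was also looked up. For the 30 lncRNAs that rose, it rose in 9 cases, fell in 1, did not pass in 15 and was not tested in 5. For the 48 that fell, it rose in 4 cases, fell in 7, did not pass in 35 and was not tested in 2. For the 258 that did not pass, it rose in 26, fell in 20, did not pass in 165 and was not tested in 47. Of all tested genes 10.6% rose and 8.82% fell, and of those with a mean of at least 2 CPM 11.9% rose and 10.6% fell. Where the nearest gene overlaps the lncRNA, the counts are uncertain as to the gene, since the strand setting is not given. Whether the calls of lncRNA and nearest gene go together was not tested. LINC02392, the lncRNA with the largest fall, has no protein-coding gene within 571528 bases, at which distance ATP2B1, a calcium pump gene, had 224.1 CPM with khellin and 252.5 CPM in control and did not pass.

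Promoter windows of 250 bases before to 50 bases after the start were found in RefSeq (GRCh38.p14) for 205 of the 336, 35 of those that fell, 17 of those that rose and 153 of those that did not pass. They were searched on both strands for 5 motifs. These were the core TGACNNNGC of the antioxidant response element and a loose form of the AP-1 site, TGANTCA, where N is any base. The others were the cyclic AMP response element TGACGTCA, the E-box CACGTG and the TATA box TATAAA. The antioxidant core stood in 7 of the 35 windows of lncRNAs that fell, 6 of the 17 of those that rose (35.3%) and 34 of the 153 of those that did not pass (22.2%), beside 13.3% of all 35116 promoter windows. The loose AP-1 form stood in 5 of 35 (14.3%), 0 of 17 and 14 of 153 (9.15%) of these windows, beside 7.71% of all. The E-box stood in 5, 1 and 12 of them, beside 7.26% of all, the TATA box in 6, 1 and 16, beside 11.5% of all, and the cyclic AMP response element in 0, 0 and 4, beside 1.85% of all. Of the 5 lncRNAs that fell and held the loose AP-1 form, LUCAT1, MANCR and LINC00963 held tgagtca. LINC-PINT and LINC00973 held only tgattca or tgaatca. A match is a description of letters and not a bound site. The windows of LUCAT1, MANCR, LNCOG and LINC03033 are shown, the abundant falls with a shared motif beside the marker without one and the largest rise. Capitals mark the matches to the antioxidant core and the loose AP-1 form, and each window is written along its gene's strand.
LUCAT1, chr5:91314353-91314652, minus strand: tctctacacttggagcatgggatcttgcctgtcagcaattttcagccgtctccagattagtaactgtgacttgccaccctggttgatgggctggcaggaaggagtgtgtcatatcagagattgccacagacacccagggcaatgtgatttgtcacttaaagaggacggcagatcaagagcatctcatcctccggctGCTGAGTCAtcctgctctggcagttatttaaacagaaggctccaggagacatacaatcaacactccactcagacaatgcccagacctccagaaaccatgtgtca
MANCR, chr10:4678021-4678320, minus strand: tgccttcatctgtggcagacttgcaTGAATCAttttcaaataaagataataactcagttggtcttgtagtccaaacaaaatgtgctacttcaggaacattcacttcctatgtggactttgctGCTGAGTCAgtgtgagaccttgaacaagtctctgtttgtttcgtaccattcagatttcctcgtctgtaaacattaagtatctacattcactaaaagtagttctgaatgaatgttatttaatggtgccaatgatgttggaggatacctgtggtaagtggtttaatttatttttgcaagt
LNCOG, chr12:76259633-76259932, plus strand: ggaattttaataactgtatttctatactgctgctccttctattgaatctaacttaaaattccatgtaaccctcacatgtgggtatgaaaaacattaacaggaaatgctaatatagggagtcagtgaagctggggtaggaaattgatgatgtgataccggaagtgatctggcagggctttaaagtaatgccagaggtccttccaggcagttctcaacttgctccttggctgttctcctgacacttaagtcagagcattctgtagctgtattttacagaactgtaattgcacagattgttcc
LINC03033, chr14:61570290-61570589, plus strand: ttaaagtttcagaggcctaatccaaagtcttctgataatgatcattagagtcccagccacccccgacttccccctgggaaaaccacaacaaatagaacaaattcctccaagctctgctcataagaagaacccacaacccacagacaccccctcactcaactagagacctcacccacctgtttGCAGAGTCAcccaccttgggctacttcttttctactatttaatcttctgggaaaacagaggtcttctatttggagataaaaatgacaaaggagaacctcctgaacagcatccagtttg
The same 9 letters, gctgagtca, stand in the windows of LUCAT1 and MANCR, 54 and 128 bases before the start. They hold an AP-1 site within an antioxidant core read on the other strand. MANCR has a further match to the loose AP-1 form, tgaatca, 225 bases before the start. LINC03033 holds an antioxidant core without an AP-1 site, 68 bases before the start. The window of LNCOG holds neither set of letters. All distances are from the starts in RefSeq, which lie inside the genes as the count table bounds them. By the table's bounds, the antioxidant cores of LUCAT1, MANCR and LINC03033 lie within the genes.

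At the lower edge of the level used here, ST20, LINC00987 and RRN3P3 lay just inside with means of 2.001, 2.002 and 2.004 CPM. LINC02434 and LINC02367 (1.98 CPM each) and LINC01719 (1.99 CPM) lay just outside. A further 419 lncRNAs that met the naming conditions were tested but lay under this level. The fewest reads behind any of the 336 were 358 over the 6 libraries, and the median was 913.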

How the data were processed

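Total RNA of the cells was extracted with TRIzol and made into libraries with a VAHTS Universal V6 kit, per the labels' protocols. The authors deposited raw counts of reads per gene; fastp, HISAT2 and HTSeq are the tools in the submitters' processing notes. Versions, strand setting, build and annotation release are not given in the sources used here. Of 25378 identifiers shared with GENCODE release 29, 25345 overlapped its coordinates on GRCh38, so that build was inferred.

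The filter filterByExpr of edgeR kept 15865 genes, all 336 lncRNAs included. CPM used TMM factors, except for the level of at least 2 CPM that chose the lncRNAs. Khellin was compared with control by the 2-sided quasi-likelihood test of edgeR (robust, with group as the only term) and Benjamini-Hochberg adjustment over all tested genes and an adjusted p under 0.05. The SE is the absolute log2 fold change over the square root of F. The biological coefficient of variation was 6.95%. Chi-square divided by its degrees of freedom was 1.91 to 20.8 between replicates (genes of at least 20 reads), so none was a duplicate. The floor of 3 counts covers counting error only. The test was checked on simulated data.

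The lncRNAs, role lists, motifs and naming rule were chosen with earlier results of these data known. The rule named LUCAT1 and LNCOG, the 10 largest rises and falls, the 10 most abundant, the 3 smallest p of each list, the 5 smallest p of the -DT transcripts, the 3 on either side of the level, and nearest genes. A few further genes were chosen after seeing values. A few listed genes go unreported here. Chromosome 8 was not searched for miRNAs. Alternatives changed the scaling (RLE, upper quartile, library size), the filter, the level and the threshold, used DESeq2 or limma-voom, added a replicate block, or left out each library. Exon lengths are unions of exons in GENCODE 29. Tools were edgeR 4.0.16, DESeq2 1.42.0 and limma 3.58.1 in R 4.3.3, and pandas 2.3.3 in Python 3.11.15.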

Additional observations from a re-analysis of the deposited data

How the results depend on the processing

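Against 30 higher and 48 lower among the 336 lncRNAs, RLE factors gave 28 and 53, library size only 38 and 44, DESeq2 24 and 45, and limma-voom 29 and 45, and 44 of the 78 called lncRNAs were called under every such setting and with each library left out. With each library left out in turn the lncRNA counts were 19 to 32 higher and 31 to 51 lower. Over all tested genes they were 919 to 1990 higher and 643 to 1722 lower, against 1681 and 1399 with all libraries. The lowest of these came without a khellin library or without control replicate 2, and the cause was not tested. For all genes, without control replicate 2 the counts were 978 and 769, without khellin replicate 1 960 and 691, without khellin replicate 2 1073 and 836, and without khellin replicate 3 919 and 643. For all genes, library size only gave 2208 higher and 986 lower.

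Stricter choices gave fewer lncRNAs by construction: 14 higher and 31 lower of 171 with a mean of at least 5 CPM, 14 and 22 of the 133 that overlap no listed gene, 16 and 27 at an adjusted p under 0.01, and 8 and 18 with at least 1.5-fold. Of 546 recomputed values of the 39 named lncRNAs, 4 changed sign, none of a called lncRNA: LINC00987 (-0.034 with all libraries) was 0.011 with library size only and -0.13 to 0.13 with each library left out, positive without control or khellin replicate 3, and NORAD was -0.033 to 0.11 with each library left out, negative without control replicate 3. The cause was not tested. Of 30 lncRNAs named by the rule that passed, 26 passed under every alternative run, and LINC01278, TRIM16L, MTA1-DT and TYMSOS lost the call with some library left out. Among called lncRNAs given by value outside that rule, MIR924HG, LINP1 and OSER1-DT were not called under every setting either.

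With a replicate block, 26 lncRNAs were higher and 43 lower, and over all genes 1533 and 1282. No clear pairing by replicate number was seen: deviations of same-numbered libraries correlated at 0.136, 0.0339 and -0.119, and not every library correlated best with its own number. Deviations from a group mean constrain each other, so these values cannot exclude a pairing. The precision falls with the level: the median SE of the log2 fold change was 0.140 for lncRNAs of 2 to 5 CPM and 0.0643 for those of at least 20 CPM.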
